A study of Homo sapiens with 12 samples.

Results

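The genes described are 4 flavin-containing monooxygenases, FMO1, FMO2, FMO4 and FMO5, out of 56609 gene symbols measured by RNA sequencing in 2 human Ewing sarcoma cell lines. They were chosen by measured values: FMO1 was picked because it switched on in the TC-71 derivative TC-71-R, and its relatives were added to ask whether they and the other genes around FMO1 on chromosome 1 moved with it. The TC-71-R against TC-71 parental values of the 4 members are therefore a description with no test. The change in the other derivative and most of the difference between the parental lines were not used for the choice, and these were tested.

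The 12 libraries form 4 groups of 3: A4573 parental and its derivative A4573-R, and TC-71 parental and its derivative TC-71-R. Ewing sarcomas are bone and soft tissue tumours whose driver is a fusion of EWSR1 with an ETS family gene, here EWS-FLI1. The compound YK-4-279 was designed to inhibit that fusion protein. Per the labels, the parental libraries come from cells in the solvent DMSO and the -R libraries from resistant cells in YK-4-279, at doses written as 650 uM for A4573 and 400 uM for TC-71, so resistance and drug exposure cannot be told apart. The unit in the labels may be a slip for nM, which leaves the doses uncertain. All cells grew in RPMI medium with serum and HEPES. The sources used here do not say whether a derivative is a single clone, or whether separate cultures gave the 3 libraries of a group.

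Flavin-containing monooxygenases sit in the endoplasmic reticulum membrane and use NADPH, a bound FAD and oxygen to add an oxygen atom to nitrogen and sulfur atoms of drugs, foreign compounds and some metabolites. The enzymes differ in tissue: FMO1 is known from kidney and from fetal liver, FMO2 from lung, and FMO4 is low in most tissues. FMO5 is an unusual member that acts on carbonyl compounds in Baeyer-Villiger oxidations. FMO1 also converts hypotaurine to taurine. In GRCh38, FMO1 (chr1:171248471-171285978, plus strand), FMO2 (chr1:171185208-171211230, plus strand) and FMO4 (chr1:171314208-171342084, plus strand) stand in a row, and FMO5 (chr1:147175351-147243050, minus strand) lies apart on the same arm.

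The start of the coding sequence is shown for FMO1, FMO2 and FMO5 because it carries the family's FAD-binding glycine motif, whose 6 codons are in capitals, and because it shows how far the genes differ in the bases that assign reads to them. These are the first 60 bases of the longest open reading frame among the GENCODE 29 protein-coding transcripts of each gene.
FMO1: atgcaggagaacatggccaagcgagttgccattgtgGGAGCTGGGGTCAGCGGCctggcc
FMO2: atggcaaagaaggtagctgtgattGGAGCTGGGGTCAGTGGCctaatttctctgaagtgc
FMO5: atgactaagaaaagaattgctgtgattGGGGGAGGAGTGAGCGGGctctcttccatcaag
The motif begins at codon 13 in FMO1, at codon 9 in FMO2 and at codon 10 in FMO5. The reading frames are 1611, 1608 and 1602 bases long. Between these 3 genes, 62.4% (FMO1 and FMO5) to 65.8% (FMO1 and FMO2) of aligned coding bases were identical. The longest run of identical bases between any pair of them was 26 bases, between FMO1 and FMO2, which is shorter than a read of 100 bases.

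Values are CPM, counts per 1000000 reads as the authors scaled them, with reads on no named gene included in the 1000000. Named genes held 44.0 to 62.1 M reads per library (M, 1000000), and 1 read was worth 0.0103 to 0.0148 CPM. Of the 56609 symbols, 14335 reached 1 CPM in at least 3 libraries and were tested on log2(CPM + 1) with limma, a linear model with moderated variances, and Benjamini-Hochberg adjusted p-values at a threshold of 0.05. All 4 members passed this filter, but FMO1 passed only through the TC-71-R libraries and FMO2 only through the TC-71 libraries. Most tested genes differed in each comparison: 78.5% between TC-71-R and its parent, 72.5% between A4573-R and its parent and 89.9% between the parental lines.

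FMO1 went from below 1 CPM in TC-71 parental to over 60 CPM in TC-71-R. It was 0.763, 0.507 and 0.610 CPM in the TC-71 parental libraries, or 42 to 64 reads each, and 64.8, 61.5 and 65.2 CPM in TC-71-R, or 4376 to 6325 reads. The groups do not overlap, and the 3 TC-71-R libraries lie within a narrow range of each other. The means were 0.627 ± 0.129 CPM and 63.8 ± 2.01 CPM (SD, n = 3), a ratio of 102. FMO1 ranked 2 among the 14335 tested genes by log2 fold change in this pair of groups, which is the value it was chosen for. In bulk libraries, a larger share of cells with FMO1 RNA and more FMO1 RNA per cell cannot be told apart.

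FMO4, whose substrates are little known, was the member with the second largest ratio in TC-71-R. It was 2.41, 2.54 and 2.71 CPM in TC-71 parental cells and 16.9, 16.1 and 16.4 CPM in TC-71-R. Every TC-71-R library was above every parental one, with a ratio of means of 6.46 and a rank of 42. FMO2, the lung enzyme, was 2.34, 1.96 and 2.04 CPM in TC-71 parental cells and 7.43, 6.69 and 6.94 CPM in TC-71-R. Again no library overlapped, and the ratio of means was 3.32, at rank 281. FMO5 was 1.56, 1.73 and 1.26 CPM in TC-71 parental cells and 4.37, 3.84 and 4.19 CPM in TC-71-R. Its ratio of 2.72, at rank 592, was the smallest of the 4.

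All 4 members were thus higher in every TC-71-R library than in every parental one. Such a separation held for 40.2% of all tested genes, a rise past the threshold for 38.8%, and a rise past the threshold of at least 2-fold for 4.52%. These shares stand beside the members as background only, since FMO1 was chosen on these values and its relatives were added with earlier results of these data known.

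**Figure D1:**
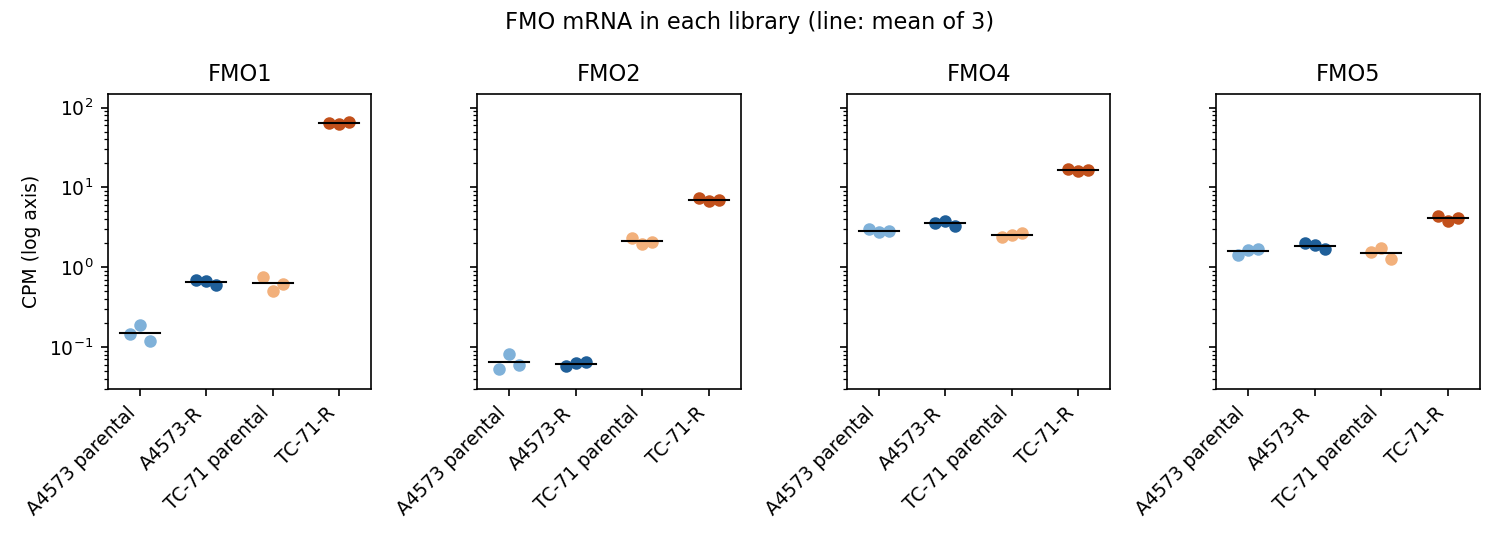
CPM of FMO1, FMO2, FMO4 and FMO5 (log axis) in each of the 12 libraries, with 1 point per library, coloured by group, and a line at the mean of 3. FMO1 lies at 61.5 to 65.2 CPM in TC-71-R and below 1 CPM in the other 9 libraries, and FMO2 is below 0.1 CPM in all 6 A4573 and A4573-R libraries.

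In A4573-R, FMO1 also rose, but stayed near the level of TC-71 parental. It was 0.146, 0.186 and 0.120 CPM in A4573 parental and 0.694, 0.675 and 0.594 CPM in A4573-R. No library overlaps, and the values rest on 37 and 148 reads in all. The means were 0.151 ± 0.0331 and 0.654 ± 0.0529 CPM (SD, n = 3), a ratio of 4.34. The rise passed limma's test, with a log2 fold change of 0.52 (SE 0.059, adjusted p = 1.1e-06). Since the added 1 CPM exceeds these levels, this scale understates the change: on the recovered reads, edgeR's quasi-likelihood test gave a log2 fold change of 2.07 (adjusted p = 1.8e-07).

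FMO4 rose slightly in A4573-R, from 2.99, 2.73 and 2.82 CPM to 3.57, 3.81 and 3.28 CPM. The groups do not overlap, and the log2 fold change was 0.24 (SE 0.055, limma adjusted p = 0.0010). FMO5 was 1.41, 1.66 and 1.67 CPM in A4573 parental and 1.98, 1.87 and 1.69 CPM in A4573-R. Its libraries do not overlap either, by a narrow margin, and its log2 fold change of 0.14 (SE 0.072) did not pass the test (limma adjusted p = 0.088). FMO2 was at 4 to 7 reads per library in both groups, 0.0531, 0.0815 and 0.0602 CPM in A4573 parental and 0.0579, 0.0625 and 0.0646 CPM in A4573-R. These overlap, at a log2 fold change of -0.0044 (SE 0.054, limma adjusted p = 0.95), and lie little above the 0.0309 to 0.0444 CPM that 3 reads amount to.

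So 2 of the 4 members, FMO1 and FMO4, rose in A4573-R, where 38.3% of all tested genes rose. For 3 of the 4, every A4573-R library was above every parental one, against 39.7% of all tested genes.

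Between the parental lines, FMO2 differed most of the 3 members tested. Its mean was 2.11 ± 0.200 CPM in TC-71 parental cells and 0.0649 ± 0.0147 CPM in A4573 parental (SD, n = 3), without overlap, and its log2 fold change of 1.54 (SE 0.054) passed limma's test (adjusted p = 2.0e-13). FMO2 reached the filter's 1 CPM only in the TC-71 parental and TC-71-R libraries, and either group alone would meet it. TC-71-R is not used in this comparison, but TC-71 parental is its higher group. With no filter the limma adjusted p was 8.8e-10. On the recovered reads edgeR gave 4.95 (adjusted p = 7.3e-14). FMO4 was 2.55 ± 0.149 CPM in TC-71 parental cells and 2.85 ± 0.130 CPM in A4573 parental, and FMO5 was 1.52 ± 0.235 and 1.58 ± 0.151 CPM. Neither passed the test, with log2 differences of -0.12 (SE 0.055, limma adjusted p = 0.057) and -0.04 (SE 0.072, limma adjusted p = 0.61). The FMO4 difference did pass with edgeR, at -0.19 (adjusted p = 0.040). The TC-71 parental level of FMO1 is part of what it was chosen for, so its mean of 0.627 CPM against 0.151 CPM is given with no test.

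The order of the groups differed between members. For FMO1, TC-71-R came first, A4573-R (0.594 to 0.694 CPM) and TC-71 parental (0.507 to 0.763 CPM) overlapped, and A4573 parental was lowest. For FMO2 both TC-71 groups stood above both A4573 groups, which overlapped. For FMO4, A4573-R came next after TC-71-R and above A4573 parental, and the parental lines were close, at 2.73 to 2.99 CPM in A4573 and 2.41 to 2.71 CPM in TC-71. For FMO5 the other three groups lay close, and TC-71 parental overlapped both A4573 parental and A4573-R.

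Per length, FMO4 was the most abundant member everywhere but in TC-71-R. Levels of different genes are compared as CPM per kb of exons. In A4573 parental FMO4 had 1.13, FMO5 0.264, FMO1 0.0419 and FMO2 0.0136 CPM per kb, so that FMO4 made up 78.0% of the sum of the 4. It made up 73.7% in A4573-R and 53.8% in TC-71 parental, where FMO2 supplied another 23.4%. In TC-71-R, FMO1 had 17.7 ± 0.559 CPM per kb (SD, n = 3), FMO4 6.54 ± 0.149, FMO2 1.47 ± 0.0794 and FMO5 0.690 ± 0.0447. There FMO1 made up 67.1% of the sum and FMO4 24.8%. The summed level of the 4 genes was 1.45, 1.92, 1.88 and 26.4 CPM per kb in A4573 parental and A4573-R and then in TC-71 parental and TC-71-R.

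**Figure D2:**
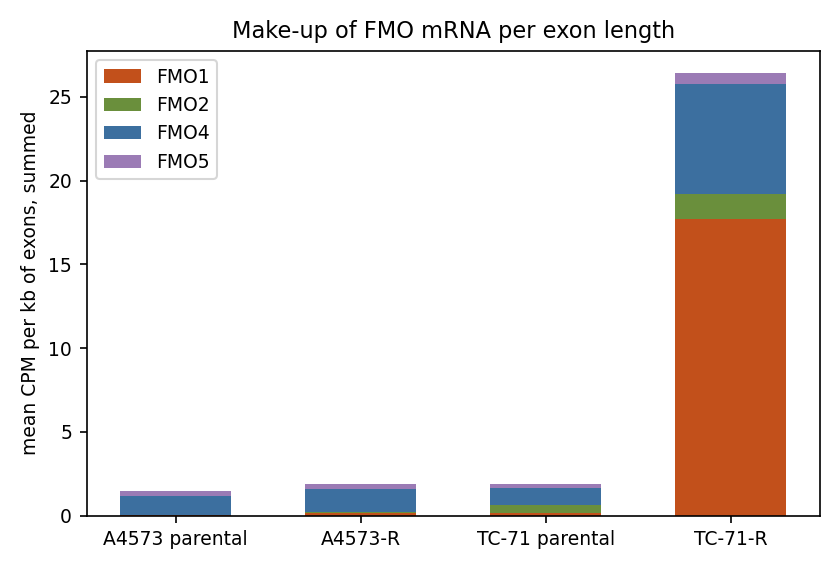
Mean CPM per kb of exons of the 4 members, stacked, in each group of 3 libraries. The bars reach 1.45, 1.92, 1.88 and 26.4 CPM per kb, with FMO4 the largest portion in the first 3 groups and FMO1 the largest in TC-71-R.

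Pseudogenes of the family are also in the files. FMO6P held at most 2 reads in a library. FMO7P, FMO8P, FMO9P, FMO10P and FMO11P were at 0 reads in all 12 libraries, which allows at most 0.0309 to 0.0444 CPM in each, for counting error only.

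The stretches of 250 bases before the start sites of the members are shown because the members were higher together in TC-71-R, with the motifs found in them in capitals. The sequences are RefSeq's on GRCh38.p14, which lists 2 starts for FMO1. FMO2 had no entry.
FMO1 upstream start, chr1:171248244-171248493, plus strand: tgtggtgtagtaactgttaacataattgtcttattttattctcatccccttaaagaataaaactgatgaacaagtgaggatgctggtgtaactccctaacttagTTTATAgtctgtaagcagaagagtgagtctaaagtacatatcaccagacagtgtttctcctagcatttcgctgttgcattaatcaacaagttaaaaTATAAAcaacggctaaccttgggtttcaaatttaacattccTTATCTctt
FMO1 downstream start, chr1:171257673-171257922, plus strand: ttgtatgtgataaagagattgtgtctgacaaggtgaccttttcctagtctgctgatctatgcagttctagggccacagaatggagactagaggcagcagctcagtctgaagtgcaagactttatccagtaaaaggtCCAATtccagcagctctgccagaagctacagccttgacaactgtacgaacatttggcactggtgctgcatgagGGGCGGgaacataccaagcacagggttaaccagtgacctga
FMO4, chr1:171313933-171314182, plus strand: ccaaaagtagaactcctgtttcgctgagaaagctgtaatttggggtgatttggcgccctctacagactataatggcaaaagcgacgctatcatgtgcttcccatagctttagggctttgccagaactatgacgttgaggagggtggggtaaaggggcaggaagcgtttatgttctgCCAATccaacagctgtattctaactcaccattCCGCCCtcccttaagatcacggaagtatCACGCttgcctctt
FMO5, chr1:147225340-147225589, minus strand: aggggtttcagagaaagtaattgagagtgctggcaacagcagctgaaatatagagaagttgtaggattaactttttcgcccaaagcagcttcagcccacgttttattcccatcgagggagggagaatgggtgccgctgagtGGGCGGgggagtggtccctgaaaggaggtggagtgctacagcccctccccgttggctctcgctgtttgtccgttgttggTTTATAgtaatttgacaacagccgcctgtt
The FMO1 upstream stretch is poor in G and C, at 34.4%, against 48.4% for the FMO1 downstream and FMO4 stretches, 51.6% for FMO5 and a median of 58% over 35116 RefSeq promoters cut to the same length. It holds 2 CpG, as does the FMO1 downstream stretch, and the FMO4 and FMO5 stretches hold 9 each, against a median of 11.

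On either strand, 12 motifs were searched: TATAAA for the TATA box, CCAAT for the CCAAT box, GGGCGG for the GC box, TGANTCA for AP-1, CACGTG for the E-box, GGAAGGAA for a pair of ETS cores, CCGGAA for an ETS core, TGACNNNGC for the antioxidant response element, GCGTG for the AHR core, TGATGNAA for the ATF4 and C/EBP element, TGTTTAC for forkhead proteins and AGATAA for GATA proteins. The FMO1 upstream stretch has TATAAA at 50 to 45 bases before the start and, on the other strand, at 146 to 141, and AGATAA on the other strand at 9 to 4. The FMO1 downstream stretch has CCAAT at 114 to 110 and GGGCGG at 41 to 36. The FMO4 stretch has CCAAT at 74 to 70 and, on the other strand, GGGCGG at 42 to 37 and GCGTG at 14 to 10. The FMO5 stretch has GGGCGG at 109 to 104 and TATAAA on the other strand at 30 to 25. No motif was found in all 4 stretches, and GGGCGG was in 3 of them. None of the searched matches overlap each other. Of the 35116 promoters, 42.6% hold GGGCGG, 32.0% CCAAT, 32.2% GCGTG, 10.7% TATAAA and 9.17% AGATAA. The motifs with no match in these windows occur in 2.98% (TGTTTAC) to 14.5% (CCGGAA) of promoters. A match of letters is not a bound site.

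Some of the other genes around FMO1 rose and some fell. GENCODE 29 places 43 other genes within 1 Mb of FMO1, of which 40 are in the files and 10 were tested, FMO2 and FMO4 among them. The 30 genes below the filter had at most 0.389 CPM as a group mean. Of the 8 tested neighbours that are no FMO genes, 3 rose and 3 fell in TC-71-R, and 2 did not pass the test. Their median log2 fold change was 0.07. With edgeR on the recovered reads, 4 rose and 3 fell. Over all tested genes 38.8% rose, 39.6% fell and the median was -0.0033. One of the 3 that rose, AL445673.1, overlaps FMO1 and passed the filter only through the TC-71-R libraries, and without it 2 of 7 rose and 3 fell, at a median of 0.04.

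PRRX1, a homeobox transcription factor of mesenchymal cells 509 kb before FMO1, rose most. It was 1.48, 1.75 and 1.66 CPM in TC-71 parental cells and 5.76, 5.34 and 5.45 CPM in TC-71-R. The groups do not overlap, and the log2 fold change was 1.31 (SE 0.051, limma adjusted p = 3.1e-12). AL445673.1, a gene on the opposite strand that overlaps the start of FMO1, was 0.346, 0.386 and 0.277 CPM in TC-71 parental cells and 1.14, 1.01 and 1.08 CPM in TC-71-R. These values are given with no test, since only its TC-71-R libraries reached the filter's 1 CPM. The sources used here do not say whether strand was kept in the libraries, so reads of AL445673.1 and of FMO1 cannot be told apart. DNM3, a dynamin 556 kb beyond FMO1, rose from a mean of 1.59 to 2.02 CPM, by 0.22 on the log2 scale (SE 0.061, limma adjusted p = 0.0042).

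Among the neighbours that fell, the nearest was PRRC2C, an RNA-binding protein gene 200 kb beyond FMO1 that was abundant in all groups. Its mean went from 275 to 248 CPM in TC-71-R, a log2 fold change of -0.15 (limma adjusted p = 0.0092). VAMP4, a vesicle fusion protein, fell from 19.0 to 13.6 CPM (log2 fold change -0.45, limma adjusted p = 8.4e-06). DNM3OS, a non-coding RNA inside DNM3 on the other strand, fell from 2.98 to 1.24 CPM (log2 fold change -0.82, limma adjusted p = 5.4e-07). GORAB, a Golgi protein, at 14.8 and 15.9 CPM, did not pass the test, with a log2 fold change of 0.10 (limma adjusted p = 0.051). Every TC-71-R library of GORAB was nevertheless above every parental one, as for 40.2% of all tested genes. METTL13, a methyltransferase, at 56.6 and 58.3 CPM, did not pass either, at 0.04 (limma adjusted p = 0.43). The 3 neighbours that fell all lie beyond FMO4, where DNM3 rose and METTL13 did not pass. GORAB and PRRX1, the only tested ones wholly before FMO1 besides FMO2, did not fall, where 39.6% of all tested genes fell.

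In A4573-R, 5 of the same 8 neighbours fell, 1 rose and 2 did not pass the test, with a median log2 fold change of -0.30. Over all tested genes 34.1% fell and 38.3% rose, and the median was 0.019. PRRX1, at 79.5 CPM in A4573 parental, fell to 53.2 CPM (log2 fold change -0.57, limma adjusted p = 8.4e-08), the opposite of its change in TC-71-R. GORAB, PRRC2C, METTL13 and DNM3OS fell by 0.34, 0.25, 0.37 and 0.91 on the log2 scale. DNM3 was the gene that rose, at 0.14 with a limma adjusted p of 0.048, and it no longer passed with edgeR (adjusted p = 0.10). It also fell short of the threshold when any single A4573 parental library, TC-71 parental library or TC-71-R library was left out, or A4573-R replicate 1, with an adjusted p of 0.28 in the last case. The change differed between the derivatives for 5 of the 8, or 4 of 7 without AL445673.1. GORAB, PRRX1 and METTL13 changed more upward in TC-71-R and VAMP4 more downward, where 78.1% of all tested genes differed.

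Wider windows on chromosome 1 also held genes that rose and genes that fell. Within 5 Mb of FMO1, and without FMO genes, 47 genes were tested in TC-71-R, of which 21 rose and 17 fell, with a median log2 fold change of 0.04. Within 10 Mb, 39 of 93 rose and 32 fell, with a median of 0.03. Over the whole chromosome 601 of 1417 rose and 501 fell, with a median of 0.04. The shares over all tested genes were 38.8% higher and 39.6% lower, with a median of -0.0033. In A4573-R, 17 of the 47 rose and 13 fell, and over the chromosome 657 of 1417 rose and 394 fell, at a median of 0.08. There 38.3% of all tested genes rose and 34.1% fell, at a median of 0.019.

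**Figure D3:**
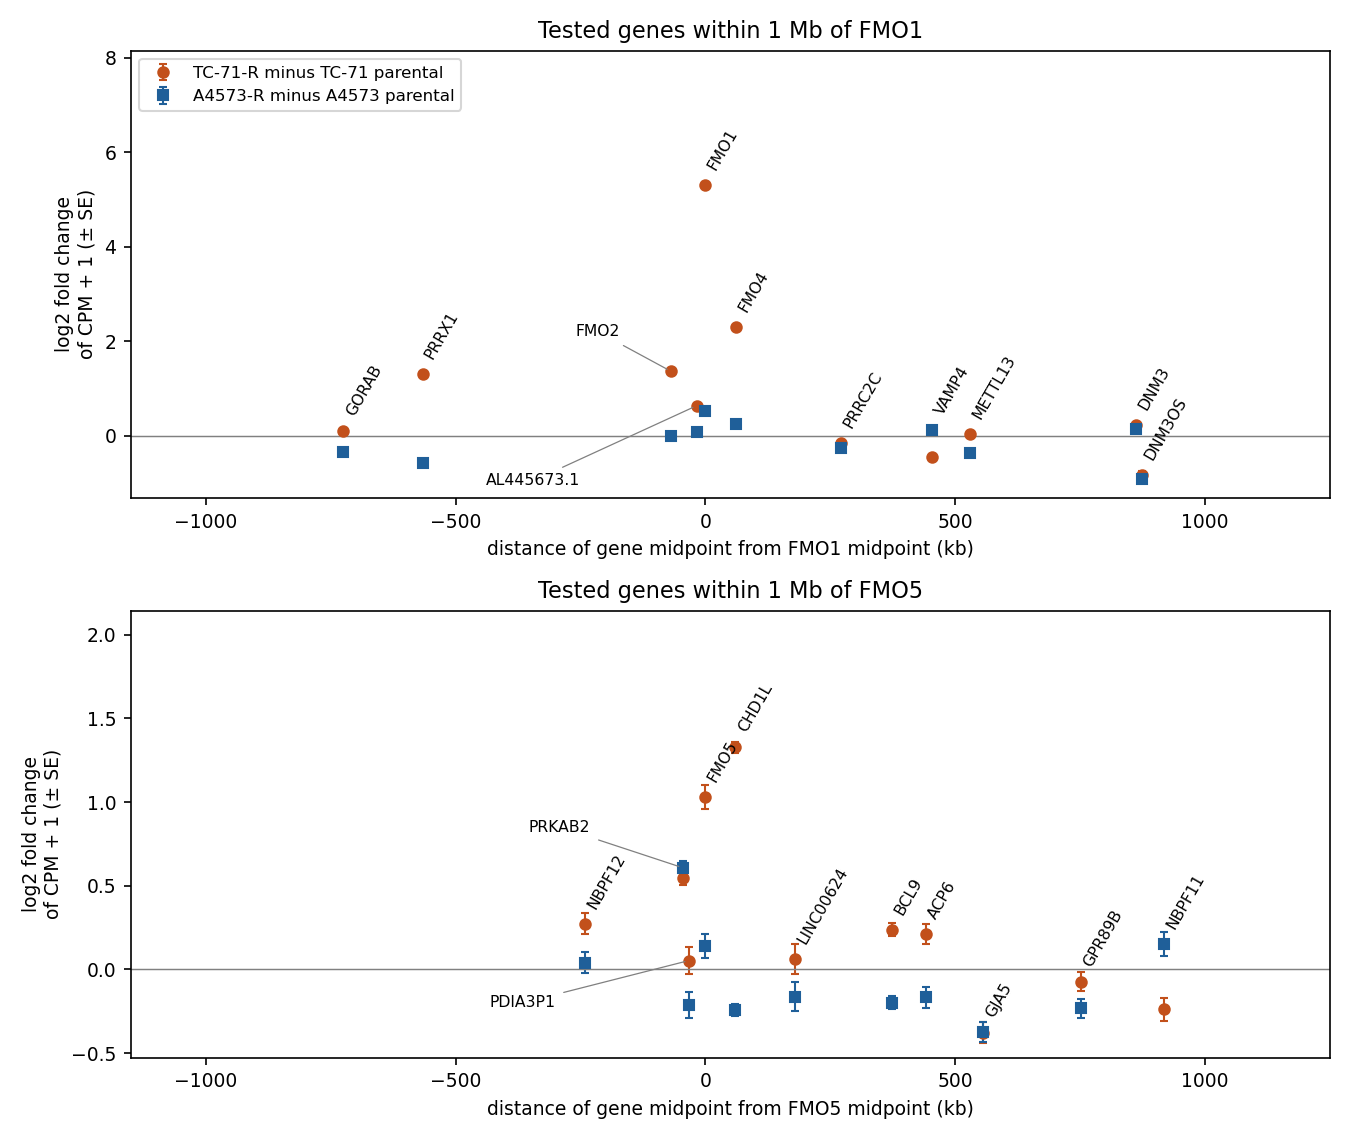
Log2 fold change of CPM + 1 (± SE of the fit) of each tested gene within 1 Mb of FMO1 (top) and FMO5 (bottom) against the distance between gene midpoints in kb, for TC-71-R (circles) and A4573-R (squares), each against its parent. Around FMO1, PRRX1, AL445673.1, FMO2 and FMO4 are the genes above 0.5 in TC-71-R, and the other genes lie on both sides of 0.

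FMO5 lies apart, and there an adjacent gene also rose in TC-71-R. Of 56 other genes within 1 Mb of FMO5, 46 are in the files and 10 were tested. In TC-71-R 5 rose, 2 fell and 3 did not pass the test, at a median log2 fold change of 0.14, against 38.8% higher, 39.6% lower and a median of -0.0033 over all tested genes. CHD1L, a chromatin remodeller at chr1:147242641-147295766 whose start overlaps the end of the FMO5 span that lies at its own start, on the opposite strand, was 77.4, 80.6 and 81.5 CPM in TC-71 parental cells and 201, 204 and 200 CPM in TC-71-R. The groups do not overlap, at a log2 fold change of 1.33 (SE 0.034, limma adjusted p = 2.9e-14). In A4573-R, CHD1L fell from 61.3 to 51.7 CPM (log2 fold change -0.24, limma adjusted p = 1.2e-05). Reads in the overlap of CHD1L and FMO5 cannot be assigned to either without the strand. The FMO5 stretch shown above, chr1:147225340-147225589, precedes a RefSeq start inside the GENCODE span of FMO5 and does not reach CHD1L. PDIA3P1 overlaps the other end of FMO5 and did not pass the test in TC-71-R, at a log2 fold change of 0.05 (limma adjusted p = 0.55).

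PRKAB2, a subunit of the energy sensor AMPK next to FMO5, rose in both derivatives. It went from 89.3 to 131 CPM in TC-71-R (log2 fold change 0.55, limma adjusted p = 9.9e-09) and from 26.6 to 41.1 CPM in A4573-R (0.61, adjusted p = 4.7e-09). BCL9, a co-activator of Wnt signalling, ACP6, a lipid phosphatase, and NBPF12 rose in TC-71-R by 0.24, 0.21 and 0.27 on the log2 scale. GJA5, a gap junction protein, and NBPF11 fell by 0.38 and 0.24. LINC00624 and GPR89B did not pass the test there. In A4573-R, 1 of the 10 rose and 6 fell, at a median of -0.18, where 38.3% of all tested genes rose and 34.1% fell, at a median of 0.019. NBPF11, NBPF12, GPR89B and PDIA3P1 have near-identical copies elsewhere, so their counts are uncertain.

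Genes that work around FMO enzymes moved in both directions. They are grouped in lists by function, and each is given by its counts beside the shares of all tested genes, 38.8% higher and 39.6% lower in TC-71-R, and 38.3% higher and 34.1% lower in A4573-R. FMO enzymes draw electrons from NADPH. Of 16 tested genes for electron supply and related oxidases, 8 rose and 7 fell in TC-71-R, with a median log2 fold change of 0.12, and 7 rose and 5 fell in A4573-R, with a median of -0.03. IDH1, which makes cytosolic NADPH, fell from 364 to 112 CPM in TC-71-R (log2 fold change -1.69, limma adjusted p = 7.7e-15), and ME1, another source of NADPH, fell from 23.1 to 12.2 CPM (-0.87, adjusted p = 2.7e-11). In A4573-R, AIFM2 and AIFM1, flavoproteins that oxidise NADH or NADPH, fell by 1.08 and 0.55 on the log2 scale.

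The cytochromes P450 are the other large family of drug-oxidising enzymes. Of 24 listed, 9 were tested. In TC-71-R 3 rose and 2 fell, at a median of 0.02, and in A4573-R 4 rose and 2 fell, at a median of 0. CYP2R1, a vitamin D hydroxylase, fell from 20.6 to 11.8 CPM in TC-71-R (log2 fold change -0.75, limma adjusted p = 1.7e-07), and CYP2U1, a fatty acid hydroxylase, rose from 11.4 to 13.9 CPM (0.26, adjusted p = 0.00032). In A4573-R, CYP2J2 and CYP2E1 rose by 0.66 and 0.41 on the log2 scale.

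Of 11 tested hydrolases and carbonyl reductases, 6 rose and 4 fell in TC-71-R, at a median of 0.31, and 2 rose and 5 fell in A4573-R, at a median of -0.12. CES1, a carboxylesterase that hydrolyses ester drugs, was 11.7, 12.9 and 13.4 CPM in TC-71 parental cells and 0.178, 0.170 and 0.227 CPM in TC-71-R. It fell by 3.52 on the log2 scale (SE 0.097, limma adjusted p = 6.1e-14), without overlap. In A4573-R it rose instead, from a mean of 138 to 233 CPM (log2 fold change 0.76, limma adjusted p = 4.0e-06). CBR1, a carbonyl reductase, rose from 28.7 to 50.1 CPM in TC-71-R, and PON2, a lactonase, fell from 33.4 to 23.3 CPM in A4573-R.

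Conjugating enzymes act on products of oxidation. Of 33 listed, 19 were tested, of which 11 rose and 5 fell in TC-71-R, at a median of 0.22, and 7 rose and 7 fell in A4573-R, at a median of 0.02. The glutathione transferase GSTM3 rose from 40.0 to 118 CPM in TC-71-R (log2 fold change 1.54, limma adjusted p = 1.1e-13), and MGST3, a microsomal one, from 17.8 to 44.7 CPM (1.28, adjusted p = 1.1e-13). In A4573-R, the glycosyltransferase UGT3A2 fell from 352 to 142 CPM (log2 fold change -1.30, limma adjusted p = 1.1e-12). TST, a sulfurtransferase counted in this list though not a conjugating enzyme, fell there from 17.3 to 7.26 CPM.

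The taurine and cysteamine pathway, which holds the hypotaurine that FMO1 oxidises, had 13 of 19 genes tested. In TC-71-R 3 rose and 5 fell, at a median of -0.14, and in A4573-R 2 rose and 6 fell, at a median of -0.10. SLC6A6, the taurine transporter, was 17.2, 17.3 and 17.5 CPM in TC-71 parental cells and 35.2, 36.9 and 35.6 CPM in TC-71-R. It rose by 1.01 on the log2 scale (SE 0.041, limma adjusted p = 4.3e-12), without overlap. GGT7, of the gamma-glutamyltransferase family, fell from 27.0 to 15.5 CPM. In A4573-R, PANK1, which starts coenzyme A synthesis, fell from 13.2 to 4.06 CPM, and CTH, which makes cysteine, rose from 6.51 to 15.1 CPM.

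Reported regulators of FMO genes had 12 of 21 tested. In TC-71-R 3 rose and 7 fell, at a median of -0.23, and in A4573-R 6 rose and 4 fell, at a median of 0.10. CEBPB, a stress and inflammation transcription factor, fell from 232 to 81.4 CPM in TC-71-R (log2 fold change -1.50, limma adjusted p = 5.7e-09). CEBPA, its relative known from liver and fat, was 8.63, 8.03 and 8.92 CPM in TC-71 parental cells and 3.08, 3.54 and 3.29 CPM in TC-71-R, and fell by 1.15 on the log2 scale (adjusted p = 3.3e-09 with limma). In A4573-R it rose by 1.36, from 2.87 to 8.99 CPM. FOXO1 fell from 8.84 to 2.74 CPM in A4573-R.

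**Figure D4:**
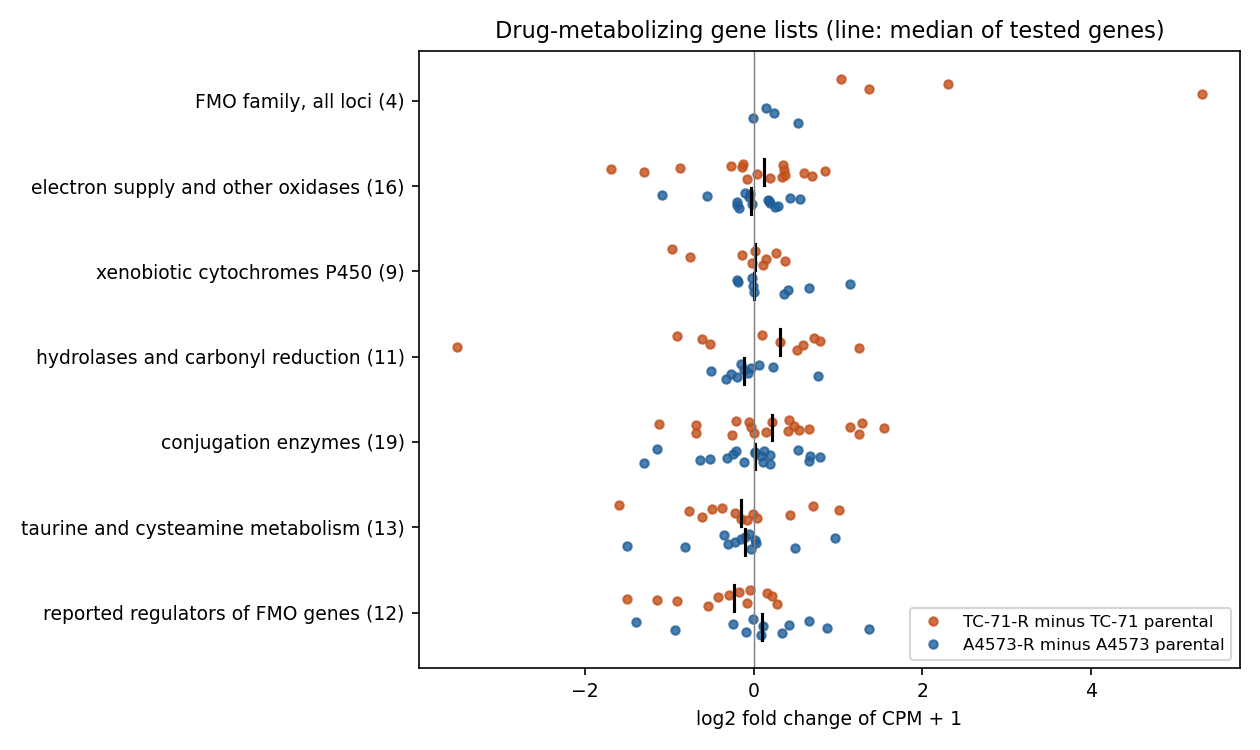
Log2 fold change of CPM + 1 for each tested gene of 7 lists, TC-71-R and A4573-R each against its parent, with the number of tested genes in brackets and a line at the median (not drawn for the FMO genes). The 4 FMO genes lie above 1 in TC-71-R and between -0.0044 and 0.52 in A4573-R, and the other lists spread to both sides of 0 in both derivatives.

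Markers of liver, kidney and lung, where these enzymes are known, summed to less in TC-71-R than in its parent. Of 9 Ewing sarcoma markers, 8 had a mean of at least 1 CPM in every group, and the list summed to 1740 to 1752 CPM in TC-71 parental cells and 2113 to 2162 CPM in TC-71-R. CD99, the surface marker of this tumour, was at most 0.0145 CPM in any library. Its gene lies in a region shared by the X and Y chromosomes. None of 10 hepatocyte markers reached a mean of 1 CPM in any group, and their sum was 0.798 to 0.833 CPM in TC-71 parental cells and 0.666 to 0.761 CPM in TC-71-R. Of 10 kidney tubule markers, SLC22A6, SLC22A8 and UMOD were at 0 in all groups, and the list summed to 5.01 to 5.24 CPM in TC-71 parental cells and 2.59 to 3.39 CPM in TC-71-R, mostly from CUBN. The 8 lung epithelium markers summed to 6.71 to 7.09 CPM in TC-71 parental cells and 3.15 to 3.37 CPM in TC-71-R, mostly from AGER and NKX2-1, and SFTPB, SFTPC, SFTPA1 and SCGB1A1 were at most 0.062 CPM as a group mean.

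Genes with the pattern most like each member were found by Pearson correlation of log2(CPM + 1) over the 12 libraries. Those values describe 4 groups of shared libraries and have no test. For FMO1 the 5 closest were GALNT9 (r = 0.998), WDR72 (0.998), FAM3B (0.997), PNLDC1 (0.997) and KIRREL3 (0.997), on chromosomes 12, 15, 21, 6 and 11. WDR72, a protein known from tooth enamel and kidney, had means of 0, 0.0356, 0.102 and 7.66 CPM in A4573 parental and A4573-R and then in TC-71 parental and TC-71-R. FAM3B, a secreted protein, had 0.0608, 0.0894, 0.163 and 8.98 CPM in the same order. All 5 were highest in TC-71-R, which follows from picking them for likeness to FMO1. None is on chromosome 1, which holds 1417 of the 14335 tested genes besides the FMO genes, so this is not read as a result.

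For FMO2 the closest were ADRA1B, IGSF11 and CSAG1, each at r = 0.999. ADRA1B, an adrenergic receptor, had means of 0.0482, 0.00913, 6.05 and 32.4 CPM in A4573 parental and A4573-R and then in TC-71 parental and TC-71-R. For FMO4 they were SELENOP (0.998), SUSD2 (0.995) and VIM (0.995), and for FMO5 the same genes, with VIM at 0.984, SELENOP at 0.984 and SUSD2 at 0.981. SELENOP, a secreted selenoprotein, had 5.34, 6.44, 4.84 and 39.1 CPM, and VIM, the mesenchymal intermediate filament vimentin, 262, 298, 255 and 619 CPM. Among the members, r was 0.988 between FMO1 and FMO4, 0.980 between FMO4 and FMO5 and 0.971 between FMO1 and FMO5. FMO2 stood further off, at 0.872 with FMO1, 0.790 with FMO4 and 0.775 with FMO5.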

How the data were processed

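RNA was sequenced as 12 libraries with a TruSeq RNA kit and paired reads, per the labels' protocols. Per the submitters' processing notes, the tools were Trimmomatic, STAR 2.4 and HTSeq, with edgeR, and the genome was GRCh38. The authors' deposited signal is a value per gene that, divided by each column's smallest step, gave whole numbers for 100% of values within 0.001, so it was read as CPM on library sizes times a scaling factor of 0.894 to 1.06. This scaling was kept, and counts were recovered from the steps for the tests on reads. The 5 entries with no gene name, 30.6% to 42.0% of reads, were not tested and not counted in depth. The deposited CPM keep these reads in their denominator, so the filter and the limma tests do too. The edgeR and DESeq2 tests and the scaling to named genes leave them out.

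Symbols listed more than once were summed. Tests used limma 3.58.1 in R 4.3.3 on log2(CPM + 1), with a mean per group, a trend on expression, and genes of at least 1 CPM in at least 3 libraries. edgeR 4.0.16 (quasi-likelihood, TMM) and DESeq2 1.42.0 on recovered reads, other scalings, filters and pseudocounts, 2-group fits, a replicate block and leaving out each library were alternatives. The scripts were tested on simulated data. The labels do not say whether the 3 libraries came from separate cultures, and p-values measure only the spread between them. Exact tests on 3 against 3 libraries cannot pass 0.05 and were not used.

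The members and lists were chosen with earlier results of these data known. Named genes follow a rule: the members, every tested gene within 1 Mb of FMO1 or FMO5, the genes of highest correlation with each member (5 for FMO1, 3 for the others, clone names left out), and up to 4 genes per list and derivative with the largest change past the threshold and at least 5 CPM, of which the top 2 are given. Positions are GENCODE 29 on GRCh38, and GSTT1 had no match. Some further family results and sequence are not reported here.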

Additional observations from a re-analysis of the deposited data

Results flagged for a closer look

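These genes changed differently in the 2 derivatives, by a test of the difference itself (limma, adjusted over 14335 genes), which 78.1% of tested genes passed. Values are the log2 change in TC-71-R minus that in A4573-R. No explanation is weighed. The FMO genes are left out, since FMO1 was chosen on one side of this difference and its relatives were added with earlier results known.

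Near FMO1, the difference was 1.88 for PRRX1, 0.56 for AL445673.1, 0.44 for GORAB, 0.41 for METTL13 and -0.58 for VAMP4. Near FMO5, it was 1.57 for CHD1L, 0.44 for BCL9, 0.38 for ACP6, 0.27 for PDIA3P1, 0.23 for NBPF12 and -0.39 for NBPF11. PRRX1, CHD1L, BCL9 and ACP6 rose in TC-71-R and fell in A4573-R, each past the threshold in both. AL445673.1 passed the filter only through TC-71-R, so its value is a description.

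Of the NADPH and flavoprotein genes, IDH1 differed by -2.12, ME1 by -0.82, AIFM2 by 0.81 and AIFM1 by 0.42. Of the cytochromes P450, CYP2R1 differed by -0.75, CYP2U1 by 0.45 and CYP2J2 by -0.52. Of the hydrolases and reductases, CES1 differed by -4.29, the largest in size among those given here, CBR1 by 0.90 and PON2 by 0.81. Of the conjugating enzymes, UGT3A2 differed by 2.55, MGST3 by 1.27 and GSTM3 by 0.76, and TST, counted in the same list, by 1.57.

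In taurine and cysteamine metabolism, SLC6A6 differed by 1.16, PANK1 by 0.88, GGT7 by -0.78 and CTH by -1.45. Among the regulators, CEBPA differed by -2.51, CEBPB by -2.37 and FOXO1 by 1.55.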

How the results depend on the processing

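Over the alternatives run, no value past the threshold changed direction. Of the values that answer a comparison, 397 kept their direction and side of the threshold, 24 counts moved by more than 1.5 times, 6 passed the threshold that had not and 3 turned in sign without passing. Of the values of single genes, 1597 were the same in this sense, 35 lost their call, 20 gained one and 12 turned in sign without passing.

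The sign turned for FMO5 between parental lines, to 0.0055 with scaling to named genes and over -0.099 to 0.035 when a library was left out (positive without TC-71 parental replicate 3), and for FMO2 in A4573-R, over -0.012 to 0.0068 when a library was left out (positive without A4573 parental replicate 2). In TC-71-R, scaling to named genes gave -0.029 for METTL13 and -0.0023 for PDIA3P1. Leaving out a library there gave -0.010 to 0.10 for PDIA3P1 and -0.044 to 0.16 for LINC00624, negative without TC-71-R replicate 1 for PDIA3P1 and without TC-71 parental replicate 3 or TC-71-R replicate 2 for LINC00624. In A4573-R, edgeR gave -0.011 for MGST3 and -0.0045 for GGT7. Leaving out a library there gave -0.0083 to 0.078 for NBPF12, -0.10 to 0.093 for CYP2R1, -0.019 to 0.049 for MGST3 and -0.015 to 0.04 for GGT7, with 1 or 2 libraries turning the sign of each.

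The number of genes near FMO1 higher in A4573-R was 1, and 0 with a pseudocount of 0.25, no filter, a mean of at least 5 CPM, median-of-ratios scaling, scaling to named genes, edgeR, DESeq2 or only the 2 groups compared. It was 0 to 2 when a library was left out, with 2 without A4573-R replicate 3. In TC-71-R, the number higher near FMO1 was 3, and 4 with median-of-ratios scaling, edgeR, DESeq2 or only the 2 groups compared. It was 2 with a mean of at least 5 CPM, and 3 to 4 when a library was left out. Leaving out AL445673.1, chosen after seeing the data, gave 2 higher and 3 lower in TC-71-R and 1 and 5 in A4573-R. The number near FMO5 higher in A4573-R was 1, and 2 with only the 2 groups compared, where NBPF11 was added. It was 1 to 2 when a library was left out, with 2 without A4573-R replicate 3, TC-71-R replicate 2 or TC-71-R replicate 3. The FMO4 difference between parental lines passed with median-of-ratios scaling (-0.14, adjusted p = 0.032), edgeR (-0.19, adjusted p = 0.040) and only the 2 groups compared (-0.12, adjusted p = 0.046). Leaving out a library gave -0.15 to -0.088, and it passed without TC-71 parental replicate 3 or A4573-R replicate 2 or 3. The cause was not tested.

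The log2 change of FMO1 in A4573-R ranged from 0.50 to 2.10 and that of FMO2 between parental lines from 1.49 to 4.98, with the highest values from tests on reads. The TC-71-R to TC-71 parental ratio of FMO1 was 93.0 to 114 when a library or the scaling was changed. Scaling moved the median of all genes by less than 0.1.

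Libraries with the same number correlated at -0.097 to 0.026 after group means were removed, so the numbers do not pair them. With that number as a replicate block, 11285, 10422 and 12915 genes passed in TC-71-R, A4573-R and the parental comparison, against 11248, 10389 and 12892, and the number near FMO5 higher in A4573-R was 2. Depth limits FMO2 in A4573, at 4 to 7 reads a library.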
